A study of Mus musculus with 5 samples.

Results

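The C/EBP (CCAAT/enhancer-binding protein) and PAR bZIP (proline- and acidic-rich basic leucine zipper) genes were followed across liver and neural progenitor lines of the mouse. Every probe that carries the name of Cebpa, Cebpb, Cebpd, Cebpg, Ddit3, Dbp, Hlf, Tef or Nfil3 was taken, by the gene name on the array or the current symbol of the transcript. These were 17 of the 41174 probes that are not controls. Of the 9 genes, 8 had a probe bright enough to be tested, among 19303 genes tested.

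RNA from 5 cell lines was hybridised to 1-colour Agilent arrays, 1 array per line. The hepatic progenitor cells (HPC) were the lines HB1, from strain C57BL6J, and HNG2, from STOCK Tg(Nanog-GFP, Puro)1 Yam, both established from fetal liver at stage E13.5. The neural progenitor cells (NPC) were 1 array of the line NSBAg2. NSBAg2 came from the embryonic stem cell line BAg73C2, whose Afp gene carries a beta-geo reporter with drug resistance. The induced hepatic progenitor cells (iHPC) were NSBAg2 cells infected with pMXs retroviruses for 9 (9F) or 10 (10F) transcription factors. G418 was added 3 weeks after infection and kept for 1 week, so the iHPC were selected for transcription from Afp. The labels do not name the factors, so whether a gene described here was among them is not given.

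C/EBP and PAR bZIP proteins bind DNA as dimers held by a leucine zipper. C/EBP alpha drives the genes of the mature hepatocyte, and C/EBP beta and delta rise in liver during the acute phase response to infection or injury. C/EBP gamma and CHOP, the product of Ddit3, are poor activators on their own and act largely through the partners they bind. DBP, TEF and HLF are the PAR bZIP activators, driven by the circadian clock in liver, and NFIL3 represses through the same D-box elements.

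A level here is log2 of the processed signal minus the array's 75th percentile, so 0 marks that percentile, and levels of different probes are not comparable. A gene was called when limma's adjusted p was under 0.05. The signal at the 75th percentile ran from 590.3 to 1074, and 58.9 to 65.6% of the spots on an array were well above background by the scanner's flag. The cell type labels were set against marker genes. All 9 hepatic markers were well above background on each HPC and iHPC array, and 1 of 9 (Krt18) on the NPC array, where Alb, Afp and Hnf4a were not. Of 8 neural markers 5 or 6 were well above background in HPC, 6 or 7 in iHPC and 8 in NPC, with Sox2 and Zic1 not so in HPC. Their summed level, 0.94 to 1.74 in HPC, 3.39 to 3.51 in iHPC and 4.19 in NPC, was led in iHPC by Nes (2.66 and 2.87, against 1.18 in NPC). Sox2 (-4.86) and Pax6 (-1.96) fell from NPC to iHPC, and the list's median log2 difference was -1.25. The 7 mesenchymal markers were all well above background in NPC (summed level 7.56), 5 in each iHPC (1.18 to 1.28), 2 in HB1 (-2.72) and 6 in HNG2 (1.13). Their median log2 difference was -4.97 for iHPC against NPC and -7.58 for HPC against NPC, and the part of such cells in the differences of the factor genes was not tested. Scanning took place on 3 days, the first for HB1, the second for HNG2 and the third for iHPC with NPC, so scan day and cell type cannot be told apart in comparisons with HPC.

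Cebpa encodes the activator best known for the hepatocyte programme. Its level was 1.32 in HB1, 1.64 in HNG2, -0.55 in 9F, -0.61 in 10F and 1.46 in NPC. The processed signal of that probe was 404 and 444 in the iHPC against 1667 in NPC. Both iHPC arrays lay below the other 3, and the NPC array lay between the fetal liver lines. Cebpa fell by 2.04 on the log2 scale from NPC to iHPC (SE 0.269, 95% interval -2.82 to -1.26, limma adjusted p = 0.0466), which is 4.12-fold. It was 4.17-fold lower in iHPC than in HPC, a log2 difference of -2.06 (SE 0.22, limma adjusted p = 0.0353). HPC and NPC differed by 0.02, with an interval from -0.76 to 0.79.

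This probe is given at chr7:32011212-32011271 in the scanner files, whose header names the design build mm7. A second Cebpa probe, 1156 bases away, read -2.19, -1.56, -3.72, -3.67 and -1.78 in the same order of arrays. Both iHPC arrays were again the lowest, with log2 differences of -1.91 against NPC and -1.82 against HPC. The NPC array again lay between the HPC lines. In a limma fit of all probes its adjusted p-values were 0.0818 and 0.0645, above the threshold. The call against NPC was lost with the mean of both probes (log2 difference -1.98, adjusted p = 0.0577), and with median centring of the arrays (-1.98, 0.0654). With no filter on dim probes both calls were lost, with adjusted p-values of 0.0933 against NPC and 0.0669 against HPC. Without 9F or without 10F, limma called 0 of all genes against NPC (2123 and 2120 at an unadjusted p under 0.05), and Cebpa differed from NPC by -2.08 and -2.01 (adjusted p = 0.373 and 0.381). Against HPC it then called 0 as well (1901 and 1934 unadjusted), with Cebpa at -2.09 and -2.02 (adjusted p = 0.368 and 0.376).

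The Cebpa promoter is shown because its transcript fell in the iHPC with both probes. RefSeq windows of 250 bases before and 50 after the start (GRCm38.p6) matched 8 of the 9 genes, Tef with 2 windows, and Cebpd had none. The 250 bases before the Cebpa start lie at chr7:35119043-35119292 on the plus strand, with a TATAAA match in capitals whose first base is 30 bases before the start.
Cebpa: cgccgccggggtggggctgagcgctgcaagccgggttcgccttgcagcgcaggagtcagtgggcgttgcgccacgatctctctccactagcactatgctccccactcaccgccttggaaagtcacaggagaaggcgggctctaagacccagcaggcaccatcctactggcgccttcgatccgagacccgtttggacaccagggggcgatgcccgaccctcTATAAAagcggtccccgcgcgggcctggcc
Of all 32851 windows, 13.6% held TATAAA on either strand. Of the 9 windows of these genes 2 did, that of Cebpa and that of Cebpb, where the match begins 21 bases after the start. That motif and CCAAT were added to the search after the sequences were seen. The C/EBP palindrome TTGCNNAA, found in 10.8% of all windows, was in none of the 9 windows of these genes, and neither was the C/EBP-ATF element TTGCATCA (0.895%). Each motif was searched on both strands and counted on its own, so a base can belong to more than 1 match. Only exact matches to the letters were counted, so the lack of a match does not show that no C/EBP site is present. The 9 windows were 60.3 to 81.7% G or C, against a median of 52.7% over all windows.

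**Figure D1:**
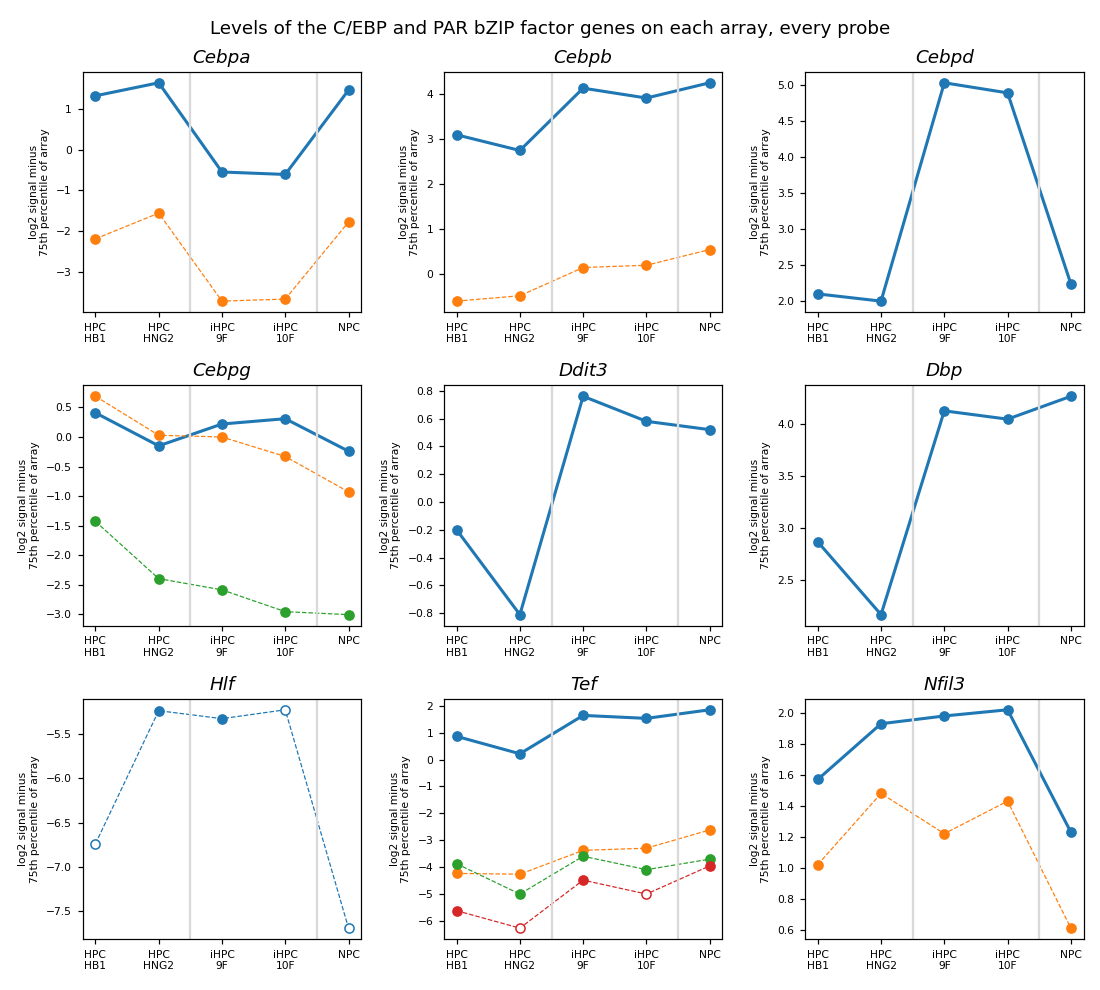
Levels (log2 signal minus the array's 75th percentile, vertical axis, a scale of its own in each panel) of every probe of the 9 genes on the 5 arrays (horizontal axis). Thick lines join the probe used for a gene, dashed lines its other probes, and open points were not well above background. Cebpa is lowest in 9F and 10F (-0.55 and -0.61) and Cebpd highest there (5.03 and 4.89).

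Cebpd rose in the iHPC where Cebpa fell. It encodes C/EBP delta, an early responder to cytokines and stress. Its level was 2.10 in HB1, 2.00 in HNG2, 5.03 in 9F, 4.89 in 10F and 2.24 in NPC. The processed signal was 19220 and 20120 in the iHPC against 2849 in NPC. Both iHPC arrays stood above the other 3, which lay between 2.00 and 2.24. Cebpd was 6.60-fold higher in iHPC than in NPC, a log2 difference of 2.72 (SE 0.238, 95% interval 2.04 to 3.41, limma adjusted p = 0.03). It was 7.49-fold higher than in HPC (log2 difference 2.91, SE 0.194, limma adjusted p = 0.0208). Of the 19303 genes tested, 805 differed as much or more in that direction from HPC, Cebpd included. HPC and NPC differed by -0.18, with an interval from -0.87 to 0.5.

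Cebpd had 1 probe, at chr16:15431723-15431782 in the scanner files. Without 9F or without 10F its difference from NPC was 2.65 and 2.79 (limma adjusted p = 0.289 and 0.269). Against HPC it was then 2.84 and 2.97, with adjusted p-values of 0.275 and 0.265. With no filter on dim probes the adjusted p against NPC was 0.0556. The iHPC and NPC arrays shared a scan day, so their differences of 2.72 for Cebpd and -2.04 for Cebpa lie within it. A fit of these arrays alone gives the same differences by construction, so it is no further check of their size. The spread of that fit came from the 2 iHPC arrays alone, so its calls are not weighed here.

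Cebpb, the acute phase partner of C/EBP delta, read 3.1 in HB1, 2.75 in HNG2, 4.14 in 9F, 3.92 in 10F and 4.26 in NPC. The NPC array was highest and both HPC arrays lowest, with no overlap between groups. In the main setting no limma comparison passed the threshold. The log2 difference was 1.11 for iHPC against HPC (interval 0.42 to 1.79, adjusted p = 0.0949) and -1.34 for HPC against NPC (interval -2.18 to -0.49, adjusted p = 0.0639). The latter passed with quantile normalization (adjusted p = 0.0439), normexp, another background correction (0.0361), the mean of its probes (0.0497) and limma's trend and robust options (0.0297). iHPC and NPC differed by -0.23 (interval -1.07 to 0.61). A second probe 538 bases away kept the order, with levels of -0.61 and -0.49 in HPC, 0.14 and 0.19 in iHPC and 0.54 in NPC.

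Cebpg, whose product pairs with other C/EBP and ATF proteins, read 0.41 and -0.15 in HPC, 0.22 and 0.31 in iHPC and -0.24 in NPC. The iHPC values lay between those of the HPC lines. iHPC differed from HPC by 0.13 (interval -0.68 to 0.95) and from NPC by 0.50 (interval -0.49 to 1.5, limma adjusted p = 0.466), and HPC from NPC by 0.37 (interval -0.63 to 1.36). The 3 probes disagreed in sign: the others gave log2 differences of -0.53 and -0.86 for iHPC against HPC. The gene's direction against HPC is therefore not settled by these arrays.

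Ddit3 encodes CHOP, a dimer partner of C/EBP proteins that is induced by endoplasmic reticulum stress. Its level was -0.20 in HB1, -0.81 in HNG2, 0.76 in 9F, 0.58 in 10F and 0.52 in NPC. iHPC and NPC lay close together and above both HPC lines. The log2 difference was 1.18 for iHPC against HPC (interval 0.31 to 2.04, limma adjusted p = 0.119) and -1.03 for HPC against NPC (interval -2.08 to 0.03, adjusted p = 0.143). iHPC and NPC differed by 0.15 (interval -0.91 to 1.2).

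Among the PAR bZIP genes, Dbp encodes the D-box binding protein, an output of the circadian clock. It read 2.87 in HB1, 2.17 in HNG2, 4.13 in 9F, 4.05 in 10F and 4.27 in NPC. Both HPC lines were below the other 3 arrays, and the HPC lines differed more from each other than those 3 did. Dbp had the largest difference among the genes not called: 1.57 for iHPC against HPC (interval 0.65 to 2.49, limma adjusted p = 0.0866) and -1.76 for HPC against NPC (interval -2.88 to -0.63, adjusted p = 0.0656). With normexp both passed (adjusted p = 0.0429 and 0.0299), and with limma's trend and robust options the latter (0.0355). Between iHPC and NPC it was -0.18 (interval -1.31 to 0.94).

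Tef, a PAR bZIP activator of the same D-box elements, read 0.87 in HB1, 0.22 in HNG2, 1.65 in 9F, 1.54 in 10F and 1.86 in NPC. The order of groups was that of Dbp, HPC below iHPC below NPC. The log2 difference was 1.05 for iHPC against HPC (limma adjusted p = 0.14), -1.32 for HPC against NPC (adjusted p = 0.0979) and -0.26 for iHPC against NPC (interval -1.34 to 0.81). Tef had 4 probes. On the next 2 the mean of iHPC lay above that of HPC by 0.91 and 0.59, but on the latter 10F (-4.10) was below HB1 (-3.88), and the last was not well above background in HNG2 and 10F. The second probe gave -1.63 for HPC against NPC, and passed the threshold in the limma fit of all probes (adjusted p = 0.0308).

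Both Tef promoters are shown because, of the 9 windows, they alone held CACGTG, the E-box through which CLOCK and BMAL1 are known to act. It was found in 7.15% of all windows. The sequences lie at chr15:81802423-81802672 and chr15:81811164-81811413, each the 250 bases before a start on the plus strand, and the E-box in capitals begins 127 and 138 bases before it.
Tef, first start: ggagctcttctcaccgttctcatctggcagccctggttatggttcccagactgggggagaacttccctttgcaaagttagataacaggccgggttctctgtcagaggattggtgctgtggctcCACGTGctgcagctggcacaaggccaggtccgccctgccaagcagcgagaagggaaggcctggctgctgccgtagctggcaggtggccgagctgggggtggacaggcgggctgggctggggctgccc
Tef, second start: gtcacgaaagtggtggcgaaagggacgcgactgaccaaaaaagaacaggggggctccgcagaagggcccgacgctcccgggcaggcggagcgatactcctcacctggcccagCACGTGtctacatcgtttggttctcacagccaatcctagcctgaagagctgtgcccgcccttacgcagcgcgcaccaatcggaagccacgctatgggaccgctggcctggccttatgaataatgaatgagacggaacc
The D-box TTANGTAA, found in 2.32% of all windows, was in none of the 9. CCAAT was in 6 of the 9 windows, of 5 genes, and in 37.4% of all windows.

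Hlf, the third PAR bZIP activator, was well above background on 2 of 5 arrays, HNG2 (-5.24) and 9F (-5.33). The other values were -6.74 in HB1, -5.23 in 10F and -7.69 in NPC, and the probe was not tested. Nfil3, the repressor at D-boxes, read 1.57 in HB1, 1.93 in HNG2, 1.98 in 9F, 2.02 in 10F and 1.23 in NPC. The NPC array was lowest on both of its probes. iHPC differed from NPC by 0.77 (interval -0.03 to 1.57, limma adjusted p = 0.213). iHPC and HPC differed by 0.26 (interval -0.4 to 0.91), and HPC and NPC by 0.52 (interval -0.28 to 1.32).

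**Figure D2:**
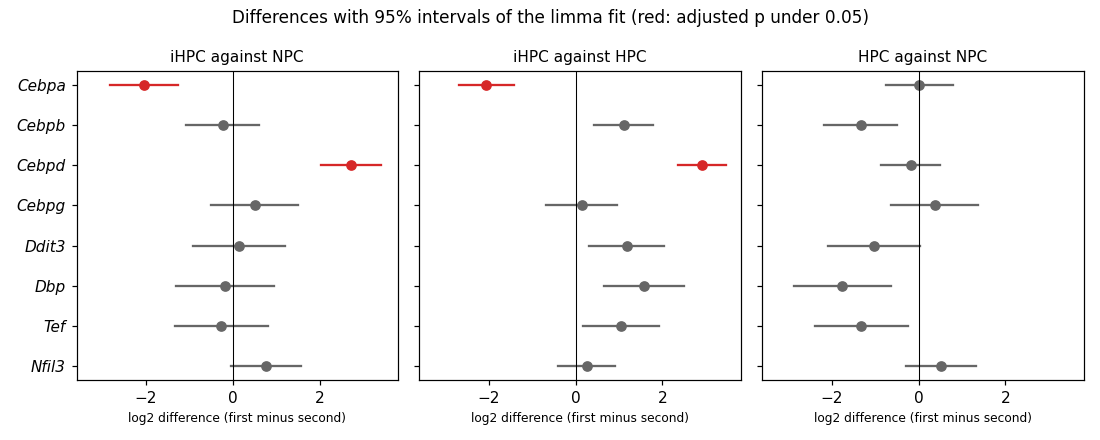
Log2 differences (horizontal axis) of the 8 tested genes in the 3 comparisons, with the 95% interval of the limma fit as bars and red for an adjusted p under 0.05. Cebpa (-2.04 and -2.06) and Cebpd (2.72 and 2.91) are red in both comparisons of iHPC, and no gene is red for HPC against NPC.

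The comparison of iHPC with NPC asks what changed in the induced cells from their parental line. Of the 8 tested genes 1 rose and 1 fell, where 5.64% of all genes were called, 2.79% higher and 2.85% lower, and these were the 2 with an unadjusted p under 0.05, which 24.4% of all genes had. All 8 had arrays that did not overlap, as did 89% of all genes with 2 arrays against 1. Their median log2 difference was -0.02, beside 0.03 over all genes. Apart from Cebpa and Cebpd, the differences ran from -0.26 to 0.77.

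The comparison of iHPC with HPC asks how the induced cells differ from progenitors of fetal liver. Again 1 gene rose and 1 fell of 8, where 5.42% of all genes were called, 3.54% higher and 1.88% lower, and 6 had an unadjusted p under 0.05, which 27.6% of all genes had. Of the 8, 7 had arrays that did not overlap, against 62.8% of all genes. Higher in iHPC were 7, among them Cebpg (0.13), whose direction is not settled, and Nfil3 (0.26, and 0.01 with median centring). The median of the 8 was 1.08, beside 0.05 over all genes, and 0.83 beside -0.2 with median centring. With median centring the all-gene calls were 676 higher and 621 lower, beside 683 and 363, and Cebpa and Cebpd stayed called. Cebpb, Ddit3, Dbp and Tef were called as well when either HPC array was left out. The spread then rested on the iHPC pair alone, and limma called 6988 of all genes without HB1 and 6963 without HNG2.

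Between HPC and NPC limma called 0 of the 8 genes, where 15.7% of all genes were called, 6.68% higher and 8.98% lower, and 3 had an unadjusted p under 0.05 (Cebpb, Dbp and Tef), a share near the 36.4% of all genes. With limma's trend and robust options 2 were called. Of the 8, 7 did not overlap, against 80% of all genes. Their median was -0.61, beside -0.03 over all genes. With median centring the all-gene calls were 1875 higher and 1478 lower, beside 1290 and 1734. Without HB1 5 were called (Cebpb, Ddit3, Dbp, Tef and Nfil3), and without HNG2 3 (Cebpb, Dbp and Tef). The spread then came from the iHPC pair alone, and limma called 9543 and 9760 of the 19303 genes. The 3 comparisons share arrays, so they are not independent of each other.

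The 9F and 10F cells, 1 array each and not tested against each other, differed by 0.04 to 0.22 in size over the 8 genes. The largest was Cebpb, at -0.22 for 10F minus 9F, and the median over all genes was 0.149. HNG2 minus HB1 was -0.70 for Dbp, -0.64 for Tef, -0.61 for Ddit3, -0.57 for Cebpg and -0.35 for Cebpb, where the median size over all genes was 0.529. Cebpa (0.32) and Nfil3 (0.36) read higher in HNG2. Cebpd differed by -0.10 between the HPC lines and by -0.14 between 10F and 9F. HB1 and HNG2 were scanned on different days, and 9F and 10F on the same day. Line and scan day therefore cannot be told apart in the HPC pair.

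Profiles over the 5 arrays were compared with those of 15050 other genes well above background on all arrays, for the genes whose levels spanned at least 2 on the log2 scale. Likeness is the root mean square difference after each gene's mean is subtracted. The closest to Cebpd was Hspb1, a small heat shock protein (0.164), with levels of 2.03, 1.90, 4.54, 4.73 and 1.86, followed by D330050I23Rik (0.169) and Oas1f (0.176). The closest to Cebpa were Bcl9l, a cofactor of beta-catenin (0.18), a cDNA with no gene symbol (0.18) and Tcim (0.183). Dbp lay closest to Zfhx2as (0.048), Vmn1r195 (0.081) and Sit1 (0.083), which were dim genes at levels of -1.42 or lower. Matching 5 values among so many genes gives close profiles readily, and this is a description only.

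**Figure D3:**
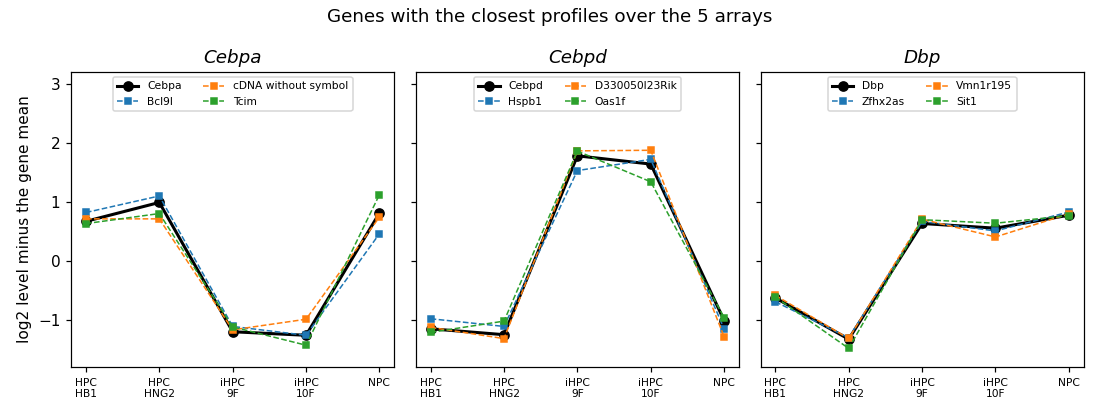
Levels on the 5 arrays (log2, each gene's mean subtracted, vertical axis) of Cebpa, Cebpd and Dbp in black, with the 3 closest genes of each in colour. Hspb1, the closest to Cebpd at 0.164, is also highest in 9F and 10F.

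Genes on which these factors are known to act were counted by lists, to be read beside the shares of all genes called. Those shares were 2.79% higher and 2.85% lower for iHPC against NPC, and 3.54% and 1.88% for iHPC against HPC. For HPC against NPC they were 6.68% and 8.98%. Of 18 liver genes known as C/EBP targets, 13 were tested. Against NPC, 8 rose in iHPC and none fell, with a median of 5.84. With normexp 6 rose and the median was 2.74. For 7 of the 13 the NPC array was not well above background, so these genes passed the filter only through groups where they are high, and the count and median are partly set by that. Of these, Hp, the acute phase protein haptoglobin, rose at least 3218-fold, Alb at least 588-fold and Cps1, of the urea cycle, at least 40.3-fold, the NPC array being not well above background for any of them. Rbp4, the retinol carrier, rose by 7.55 on the log2 scale (limma adjusted p = 0.0284). Alb is also a hepatic marker, and the iHPC were selected through Afp.

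Against HPC, 4 of the 13 were higher in iHPC and 1 was lower, with a median of 2.28. With normexp 6 were higher and 1 lower, and the median was 1.12. Saa3, an acute phase serum amyloid, read -6.17 and -5.63 in HPC, 1.35 and 1.31 in iHPC and -4.51 in NPC, a log2 difference from HPC of 7.23 (limma adjusted p = 0.0156). Only 1 of the 2 HPC arrays was well above background for it. Orm1, an acute phase glycoprotein, was at least 15.2-fold higher, and Cps1 was higher by 5.60 (adjusted p = 0.0291). Apob, the apolipoprotein of VLDL, read 4.03 and 3.74 in HPC and -1.28 and -0.75 in iHPC, a difference of -4.90 (adjusted p = 0.0193). Between HPC and NPC 5 were higher in HPC, among them Alb (at least 450.9-fold), Apob (8.70) and Rbp4 (8.43), and the median was 1.68, again with 7 of 13 not well above background in NPC. With normexp background correction 3 were higher and the median was -0.27, so its sign is not settled.

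Markers of other cells with known C/EBP activity were read beside Cebpd and the acute phase genes. Of 8 macrophage and other myeloid markers 5 were well above background in each iHPC, 4 or 5 in HPC and 3 in NPC, and Adgre1 and Itgam were not on any array. Their summed level was 1.35 to 2.77 in HPC, 2.56 to 2.66 in iHPC and 0.60 in NPC. Ptprc was at least 9.49-fold higher in iHPC than in HPC and at least 5.78-fold higher than in NPC, at levels of -3.29 and -2.84. It was not well above background on any HPC or NPC array, so it passed the filter only through the iHPC, where it is high. Cd14, the brightest of these markers on each array, read 1.11 and 2.70 in HPC, 2.05 and 2.13 in iHPC and 0.20 in NPC. Its iHPC values thus lay between those of the HPC lines. Of 5 adipocyte markers only Fabp4 was well above background in iHPC, at 1.26 and 1.80. It read -5.39 and -4.62 in HPC and -1.19 in NPC, where it was also well above background. Adipoq, Cfd and Lep were not so on any array. The part of such cells in these differences was not tested. In bulk RNA, fewer cells of a type and less RNA per cell cannot be told apart.

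Of 14 C/EBP binding partners and regulators 13 were tested, with 1 higher in iHPC than in NPC and a median of 0.15. That gene was Atf3, a stress-induced partner, at -0.19 and 0.00 in HPC, 1.27 and 1.29 in iHPC and -1.90 in NPC (log2 difference 3.18, limma adjusted p = 0.0284). Against HPC, Socs3, a feedback inhibitor of cytokine signalling, was higher by 1.47 (adjusted p = 0.0438). Zfpm1, the GATA cofactor FOG1, was lower by a log2 difference of -4.88 (adjusted p = 0.0192), and the list's median was 0.72. With median centring limma called 0 higher and 1 lower, and with normexp 3 higher and 1 lower. Between HPC and NPC, where 6.68% of all genes were higher and 8.98% lower, 2 were higher in HPC, Zfpm1 (4.23) and Atf3 (1.81). Of the 13, 4 were lower, among them Trib2 (-7.49) and Il6st (-1.86), the shared receptor subunit of the interleukin-6 family. The list's median was -0.13, beside -0.03 over all genes. With median centring it was 0.18, beside 0.29 over all genes, with 2 higher and 2 lower.

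All 20 integrated and endoplasmic reticulum stress genes were tested, the list nearest to Ddit3. Atf3 and Sdf2l1, a chaperone component (2.54, limma adjusted p = 0.0387), were higher in iHPC than in NPC, and the list's median was 1.40. With quantile normalization or median centring 3 were higher there, and with normexp 4. Against HPC limma called 0 of 20, with 8 at an unadjusted p under 0.05 (27.6% over all genes) and a median of 0.44. Quantile normalization gave 2 higher, normexp 4 higher and 1 lower, and median centring a median of 0.19. Between HPC and NPC 3 were higher in HPC, namely Atf3, Sesn2 (1.53) and Shmt2 (2.39), with a median of 0.93. That count was 7 with median centring and 8 with normexp. Over all genes the calls higher in HPC were then 1875 and 1820, beside 1290 in the main setting.

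Of 17 circadian clock genes 16 were tested. Nr1d2, a nuclear receptor that represses clock genes, read -0.59 in both HPC lines, 0.94 and 0.95 in iHPC and 0.45 in NPC, and was higher in iHPC than in HPC by 1.54 (limma adjusted p = 0.0401). It was the 1 clock gene called in that comparison, where the list's median was 0.74, and limma called 0 with median centring and 5 higher with normexp. Against NPC limma called 0 of 16, with 6 at an unadjusted p under 0.05 (24.4% over all genes) and a median of 0.41, and 1 higher with quantile normalization. Per2, a core repressor of the clock, was higher in HPC than in NPC by 1.55 (adjusted p = 0.0385), and the list's median was -0.43. With normexp 0 clock genes were higher in HPC and 2 lower, so the Per2 call was lost, and quantile normalization or median centring gave 1 higher and 1 lower. The time of day of harvest is not given in the labels.

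Of 12 genes known as PAR bZIP targets 9 were tested, and limma called 0 in each comparison. At an unadjusted p under 0.05 there were 2 for iHPC against NPC, 1 for iHPC against HPC and 1 for HPC against NPC. The shares over all genes were 24.4%, 27.6% and 36.4%. The list's medians were 0.58, 0.44 and 0.73. Without 9F or without 10F limma called 0 of all genes in every comparison, so no list had a call there.

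**Figure D4:**
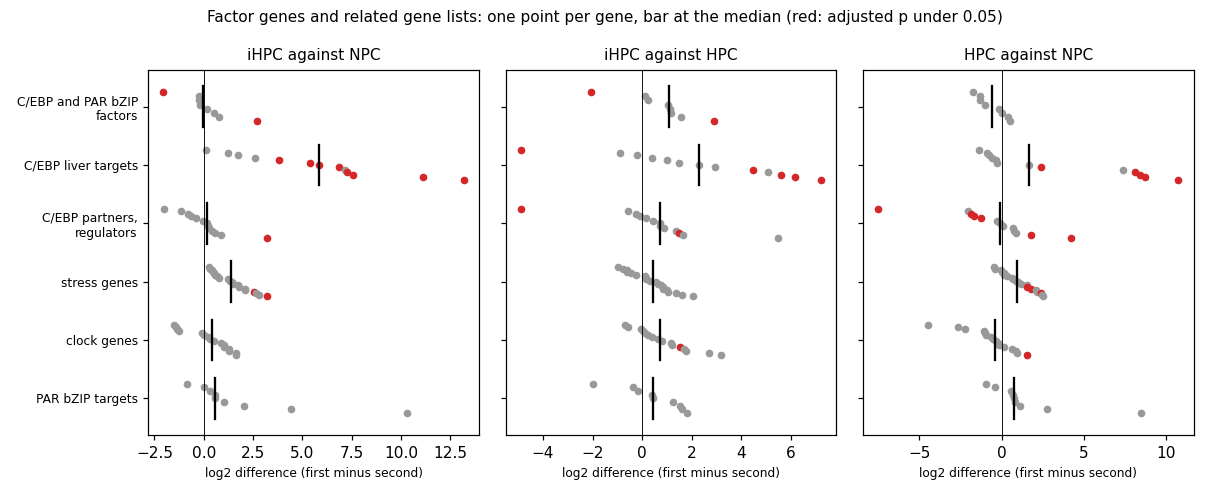
Log2 differences (horizontal axis) in the 3 comparisons for the 8 tested factor genes and 5 related gene lists, 1 point per gene, red for a limma adjusted p under 0.05, with a bar at the median. The C/EBP liver targets have their median at 5.84 for iHPC against NPC and 2.28 for iHPC against HPC, and the factor genes at -0.02 and 1.08. With normexp the target medians were 2.74 and 1.12.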

How the data were processed

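Total RNA (0.25 ug per line) was labelled with Cy3, per the labels' protocols. The deposited files hold spot intensities that Agilent Feature Extraction 10.7.3.1 corrected for background, per the file headers. No normalization between arrays is recorded. The deposited series matrix equals these intensities and was run as an alternative. From the authors' intensities log2 was taken here and the array's 75th percentile subtracted. Control and outlier spots were left out and spots of a probe averaged. Through RefSeq names (GRCm38.p6), 22940 probes were named by accession and 6658 by symbol, and 11551 kept the file's name. A probe entered the test if it was well above background on all arrays of some group, and the brightest such probe stood for its gene.

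Differences were fitted with limma 3.58.1 (R 4.3.3, lmFit and eBayes, two-sided, 5 arrays, 3 groups, 2 residual degrees of freedom, Benjamini-Hochberg over 19303 genes), and the fit was tested on simulated data. No result of that simulation is given here, so it lends no weight to the calls. NPC has 1 array and is assumed to vary like the others. HB1 and HNG2 differ in strain and scan day, and 9F and 10F in factors, so p-values rest on the spread of such lines, 1 culture each. An exact permutation test of 2 against 2 cannot go below 0.333, and the number of arrays limits the precision. A fold written "at least" divides the mean of the bright group by a floor for the dim group. That floor is the average over its arrays of the dimmest signal still well above background, or of the probe's own signal where this was higher.

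The factor genes and lists were chosen with earlier results of these data known. The text names all factor genes, up to 4 called genes per list and comparison by size, and the 3 closest profiles of genes spanning at least 2. Alternatives changed the normalization, background correction, filter, gene summary, model, block or arrays. The stem cell arrays and other neural line that the study mentions were not used here. Plots were made in matplotlib 3.10.9.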

Additional observations from a re-analysis of the deposited data

How the results depend on the processing

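Of 392 differences of the factor genes under alternatives, 213 equalled the main value at 2 decimals, since many settings change only the test or the other genes. Of the 179 that moved, 8 reversed, and none of the 33 that moved for Cebpa and Cebpd in comparisons of iHPC did. Those that reversed were small and not called: for HPC against NPC, Cebpa was -0.07 with quantile normalization, 0.00 with normexp, -0.04 with the mean of a gene's probes and -0.14 without HPC replicate 2, and Cebpd was 0.13 with median centring. For iHPC against HPC, Cebpg was -0.11 with median centring, -0.42 with the mean of probes and -0.15 to 0.42 when 1 HPC replicate was left out. Median centring moved the median of all genes to -0.20 for iHPC against HPC and 0.29 for HPC against NPC, and normexp to 0.18 and -0.19.

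Of the 8 factor genes, 0 were called for iHPC against NPC with no filter on dim probes, and 1 with median centring or the mean of probes. For iHPC against HPC 1 was called with no filter. For HPC against NPC 1 was called with quantile normalization or the mean of probes, and 2 with normexp or limma's trend and robust options. Leaving out 1 array gave 0 to 3 calls for iHPC against NPC, 0 to 6 for iHPC against HPC and 0 to 5 for HPC against NPC.

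Over all genes, no filter gave 305, 460 and 1643 calls for iHPC against NPC, iHPC against HPC and HPC against NPC. Requiring all arrays well above background gave 492 and 617 for the comparisons of iHPC. Normexp gave 2108 for iHPC against HPC, 1382 of them higher beside 683 of 1046 in the main setting, and 4745 for HPC against NPC. The fit of the iHPC and NPC arrays alone, which is also the scan day block, gave 6752, and that of the HPC and NPC arrays 0 (3889 at an unadjusted p under 0.05). With 9F and 10F as separate groups limma called 0 genes and 0 factor genes in each comparison (1901 to 3889 genes at an unadjusted p under 0.05). Leaving out 1 array gave 0 to 6752, 0 to 6988 and 0 to 9760 calls, 0 without either iHPC array, where the spread rests on the HPC pair.

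The slide as a random block could not be fitted. No paired analysis was possible because the replicate numbers come from the order of the samples and pair nothing. Cebpa and Cebpd were well above background on all 5 arrays, so background limits Hlf more than these.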
